A study of Sus scrofa with 8 samples.

Results

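The developmental homeobox and PAX genes comprised the protein-coding genes of the RefSeq annotation of Sscrofa11.1 whose symbols consist of PAX, LHX, DLX, IRX, EMX, OTX, MSX or GBX and a number or begin with NKX2, NKX3, NKX6, POU3F or POU4F, together with the sine oculis homeobox family (SIX2, SIX3 and others). There were 61 such genes among 20674 protein-coding genes, and 60 of them lay on chromosomes 1 to 18 and X, which hold 19487 protein-coding genes. LHX3 lay on an unplaced scaffold and was not analysed here. HOX genes were not members. The rule used gene symbols only, and no peak value enters it. The data were ChIP-seq peak lists of pig embryonic fibroblasts (PEFs), connective tissue cells cultured from fetuses of Large White pigs at 35 days of age. The cells were untreated, and no other cell type, genotype or treatment was compared. There were 2 replicates each for the histone marks H3K4me3 and H3K27ac and for the DNA-binding protein CTCF, making 6 libraries, and the labels do not say whether the replicates came from separate cultures, so that the spread between them may be technical.

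Homeobox and PAX genes encode transcription factors that lay out the body plan and specify cell types in the embryo, each family in its own set of territories, such as eye and muscle (PAX6 and PAX3), forebrain and limb (LHX), branchial arches (DLX, MSX) or neurons (POU3F, POU4F). H3K4me3 marks promoters, including many that are not active. H3K27ac marks active promoters and enhancers. In embryonic cells, promoters of this kind are known to carry H3K4me3 together with the repressive mark H3K27me3, which was not measured in these libraries. CTCF binds DNA in a sequence-specific way and takes part in the formation of chromatin loops and domain boundaries.

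The lists held between 37932 and 43516 peaks for H3K4me3, between 74983 and 81164 for H3K27ac and between 40289 and 44682 for CTCF, and they give no read counts, so the depth behind a peak is not known and the lack of a peak means only that none was called. The median fold enrichment over control of all H3K4me3 peaks was 9.27 in replicate 1 and 6.16 in replicate 2, so folds were read within a library. The label of the cells was checked against marker genes. All 12 fibroblast markers (among them COL1A1, COL1A2, VIM and PDGFRA) had both histone marks at the transcription start site (TSS). Both marks were found at 1 of 7 epithelial markers (CLDN4) and at 1 of 4 neural markers (SNAP25). They were found at 0 of 4 endothelial, 0 of 4 blood and 0 of 3 muscle markers. Of 5 neural markers listed, 4 had a matching symbol. H3K4me3 only was found at 6 of the 7 epithelial markers. H3K27ac without H3K4me3 was found in both replicates at SPI1 (blood, folds 12.4 and 17.0) and MYOG (muscle, folds 7.06 and 5.26).

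The number of CG dinucleotides before the start differed among the members. For 3 members, the 250 bases before the gene start in Sscrofa11.1 are shown 5′ to 3′ on the strand of the gene, with CG dinucleotides in capitals. DLX1 (chr15:78186417-78186666, plus strand) is an example of members with both histone marks. LHX2 (chr1:264900681-264900930, plus strand) is an example of those with H3K4me3 only, and PAX4 (chr18:20675624-20675873, plus strand) of those with neither.
DLX1: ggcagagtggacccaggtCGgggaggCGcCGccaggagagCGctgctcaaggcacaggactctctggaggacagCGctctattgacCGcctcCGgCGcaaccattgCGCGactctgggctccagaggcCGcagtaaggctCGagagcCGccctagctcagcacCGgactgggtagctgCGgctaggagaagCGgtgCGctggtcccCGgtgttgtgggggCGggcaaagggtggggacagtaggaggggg
LHX2: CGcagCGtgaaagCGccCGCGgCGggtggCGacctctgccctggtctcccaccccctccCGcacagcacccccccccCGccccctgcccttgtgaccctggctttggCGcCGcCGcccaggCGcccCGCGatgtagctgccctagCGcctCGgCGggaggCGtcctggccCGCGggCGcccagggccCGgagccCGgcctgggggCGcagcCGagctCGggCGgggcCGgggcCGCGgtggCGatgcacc
PAX4: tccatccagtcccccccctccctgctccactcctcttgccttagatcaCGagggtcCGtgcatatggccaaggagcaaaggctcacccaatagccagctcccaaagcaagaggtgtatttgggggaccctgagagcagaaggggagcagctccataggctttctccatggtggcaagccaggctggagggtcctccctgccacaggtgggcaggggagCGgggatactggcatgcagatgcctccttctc
These stretches hold 19 CG dinucleotides at DLX1, 32 at LHX2 and 3 at PAX4. Single genes do not give the level of a class. From 250 bases before to 50 after the start, the count ran from 4 (LHX8) to 68 (NKX6-2) in H3K4me3-only members. In members with both marks it ran from 4 (PAX1) to 52 (IRX2).

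Nearly all members carried H3K4me3 at the TSS, and 57.1% of those did so with no H3K27ac peak in either replicate. A mark was counted as present at a TSS where a peak overlapped the 1 kb on either side of it in both replicates. H3K4me3 was present at 56 of 60 members (93.3%), the same 56 in each replicate, against 68.9% of all protein-coding genes. H3K27ac was found at 22 members in replicate 1 and 24 in replicate 2 (23 ± 1.41, SD, n = 2) and at 22 in both (36.7%), against 60.7% of all protein-coding genes. Both histone marks were present at 22 members (36.7%, against 58.9% of all genes), and H3K4me3 alone, with no H3K27ac peak in either replicate, at 32 members (53.3%, against 8.25%). No member had H3K27ac alone (1.45% of all genes). Neither mark was found in any replicate at 4 members (6.67%, against 27.5%). In the remaining 2 members (3.33%, against 3.87%) the replicates differed. These are shares of all members and all genes and were not tested.

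**Figure D1:**
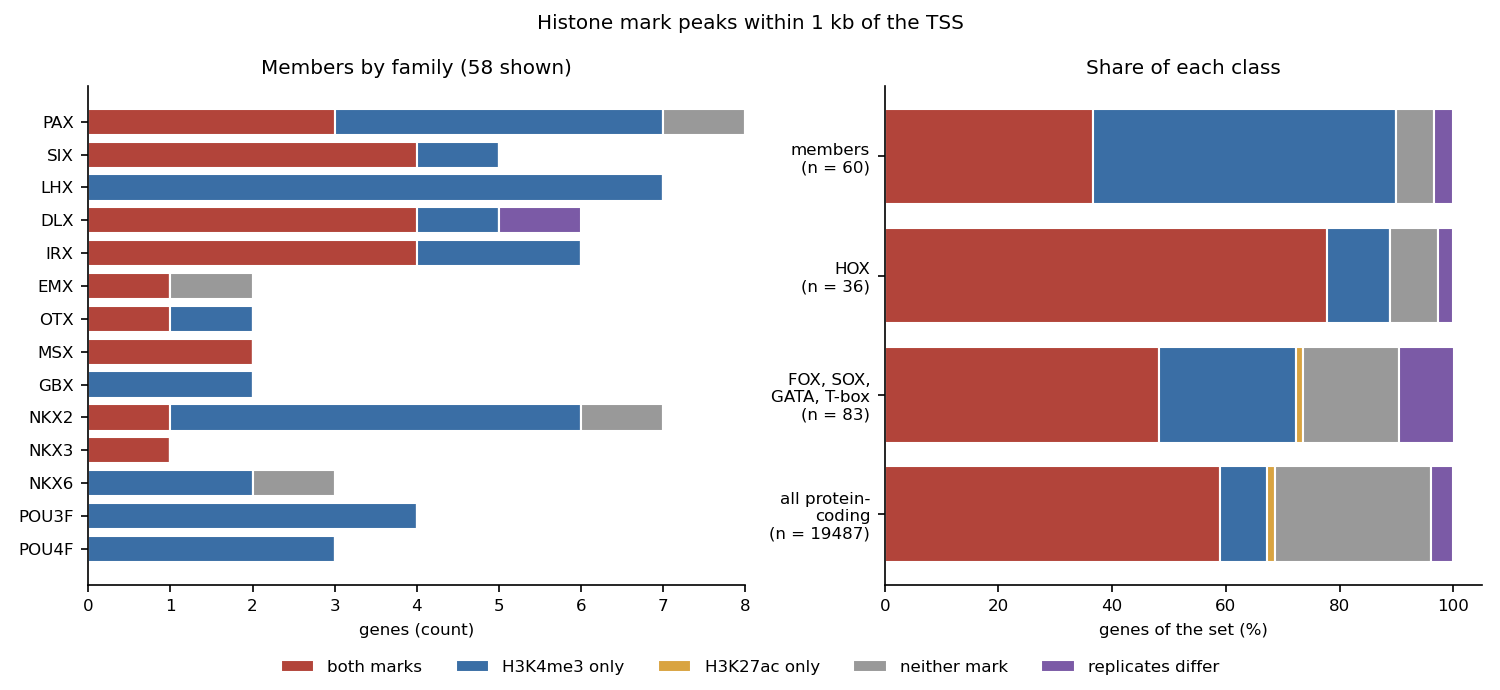
Peaks of H3K4me3 and H3K27ac within 1 kb of the TSS. Left, number of members in each class (x axis, count) for each of the 14 families (y axis), for 58 of the 60 members. Right, share of genes in each class (x axis, percent) for the 60 members, the 36 HOX genes, the 83 FOX, SOX, GATA and T-box genes and the 19487 protein-coding genes. H3K4me3 without H3K27ac made up 53.3% of the members and 8.25% of all protein-coding genes. All LHX, GBX, POU3F and POU4F members analysed were in that class.

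Within the genes that had H3K4me3 at the TSS in both replicates, H3K27ac was lacking in both replicates at 32 of 56 members (57.1%) and at 1608 of 13423 protein-coding genes (12.0%). Other families of developmental transcription factors lay in between or near the share of all genes. It was 20 of 66 (30.3%) for FOX, SOX, GATA and T-box genes, which also pattern the embryo, and 4 of 33 (12.1%) for the HOX genes, the clustered homeobox genes that set position along the body axis. The HOX genes had both marks at 28 of 36 starts. The order of these shares was not tested.

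By family, the classes were as follows. Within 1 kb of the TSS, H3K4me3 came without H3K27ac at every analysed member of 4 families. The class held all 7 LHX (LIM homeobox) genes analysed: LHX1, LHX2, LHX4, LHX5, LHX6, LHX8 and LHX9. It also held all 4 POU3F genes (POU3F1, POU3F2, POU3F3 and POU3F4) and both GBX genes, GBX1 and GBX2. All 3 POU4F genes (POU4F1, POU4F2 and POU4F3), which act in sensory neurons, were in it too. In the NKX2 family, 5 of 7 were in this class: NKX2-1, a factor of lung, thyroid and forebrain, NKX2-3, NKX2-4, NKX2-5, a factor of the early heart, and NKX2-6. NKX6-1 and NKX6-2, factors of the ventral neural tube, were in it as well. The result for the 4 whole families depended on the rule. With any annotated transcript start as the TSS, LHX9 had both marks. With a distance of 5 kb, GBX1, POU3F3 and POU4F1 had both marks.

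The members with both marks came largely from the sine oculis, DLX, IRX and MSX families, though these also held members of other classes. Both marks were found at SIX2, SIX3, SIX4 and SIX5, 4 of 6 DLX genes (DLX1, DLX2, DLX3 and DLX4), 4 of 6 IRX genes (IRX1, IRX2, IRX3 and IRX5) and both MSX genes (MSX1 and MSX2). The others included PAX1 and PAX9, which act in the sclerotome, PAX6, the eye factor, EMX2, OTX1, NKX2-2 and NKX3-2. Several families were divided. SIX6, an eye and pituitary factor, had H3K4me3 only, unlike SIX2 to SIX5. In the IRX family, IRX4 and IRX6 had H3K4me3 only, and these lie in different gene clusters, IRX4 with IRX1 and IRX2 on chromosome 16 and IRX6 with IRX3 and IRX5 on chromosome 6. PAX2, PAX3, PAX5 and PAX7 had H3K4me3 only, as did OTX2, a forebrain factor, and DLX6. The members with neither mark at the TSS were EMX1, NKX2-8, NKX6-3 and PAX4, and the members whose replicates differed included DLX5.

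The proteins that work with these factors were examined as a further list. Of 25 partner genes, 24 had a matching symbol (TLE1 did not), and 17 of them had both marks (70.8%, against 58.9% of all protein-coding genes), among them all 4 PBX genes and MEIS1, MEIS2 and MEIS3, which encode homeodomain cofactors, EYA1 and EYA3, which encode coactivators of sine oculis proteins, and LDB1 and LDB2, which bind LIM domains. H3K4me3 alone was found at 2 partners, DACH2 and LMO1 (8.33%, against 8.25% of all genes). Neither mark was found at 4 (EYA2, EYA4, LMO2 and PKNOX1), and the replicates differed at LMO3. These classes refer to the 5′ end of the gene. With any annotated transcript start as the TSS, 20 of the 24 had both marks (83.3%, against 62.1% of all genes). H3K4me3 alone was then found at 3 (12.5%, against 8.22%). The lack of a mark at the 5′ end thus does not mean that a partner gene had none at its other starts. The list was chosen by function and described by these counts only.

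H3K4me3 covered long stretches at the members, in either class. The covered length is the number of bases under peaks within 5 kb of the TSS, so that it is at most 10001 bp. In the members with both marks the median was 7224 bp in replicate 1 and 7671 bp in replicate 2 (7447 ± 316 bp, SD, n = 2), against 3145 and 3347 bp in all 11476 protein-coding genes of that class. In the H3K4me3-only members it was 4563 and 6015 bp (5289 ± 1027 bp, SD, n = 2), against 1744 and 1948 bp in all 1608 genes of that class. All 22 members with both marks and 31 of the 32 with H3K4me3 only lay above the median of their class (3256 and 1842 bp, for the mean of replicates). The difference between members and the class was larger than the difference between replicates in each class. Replicates cover the same genes, so their difference does not measure the spread among genes, and the difference between members and class was not tested.

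**Figure D2:**
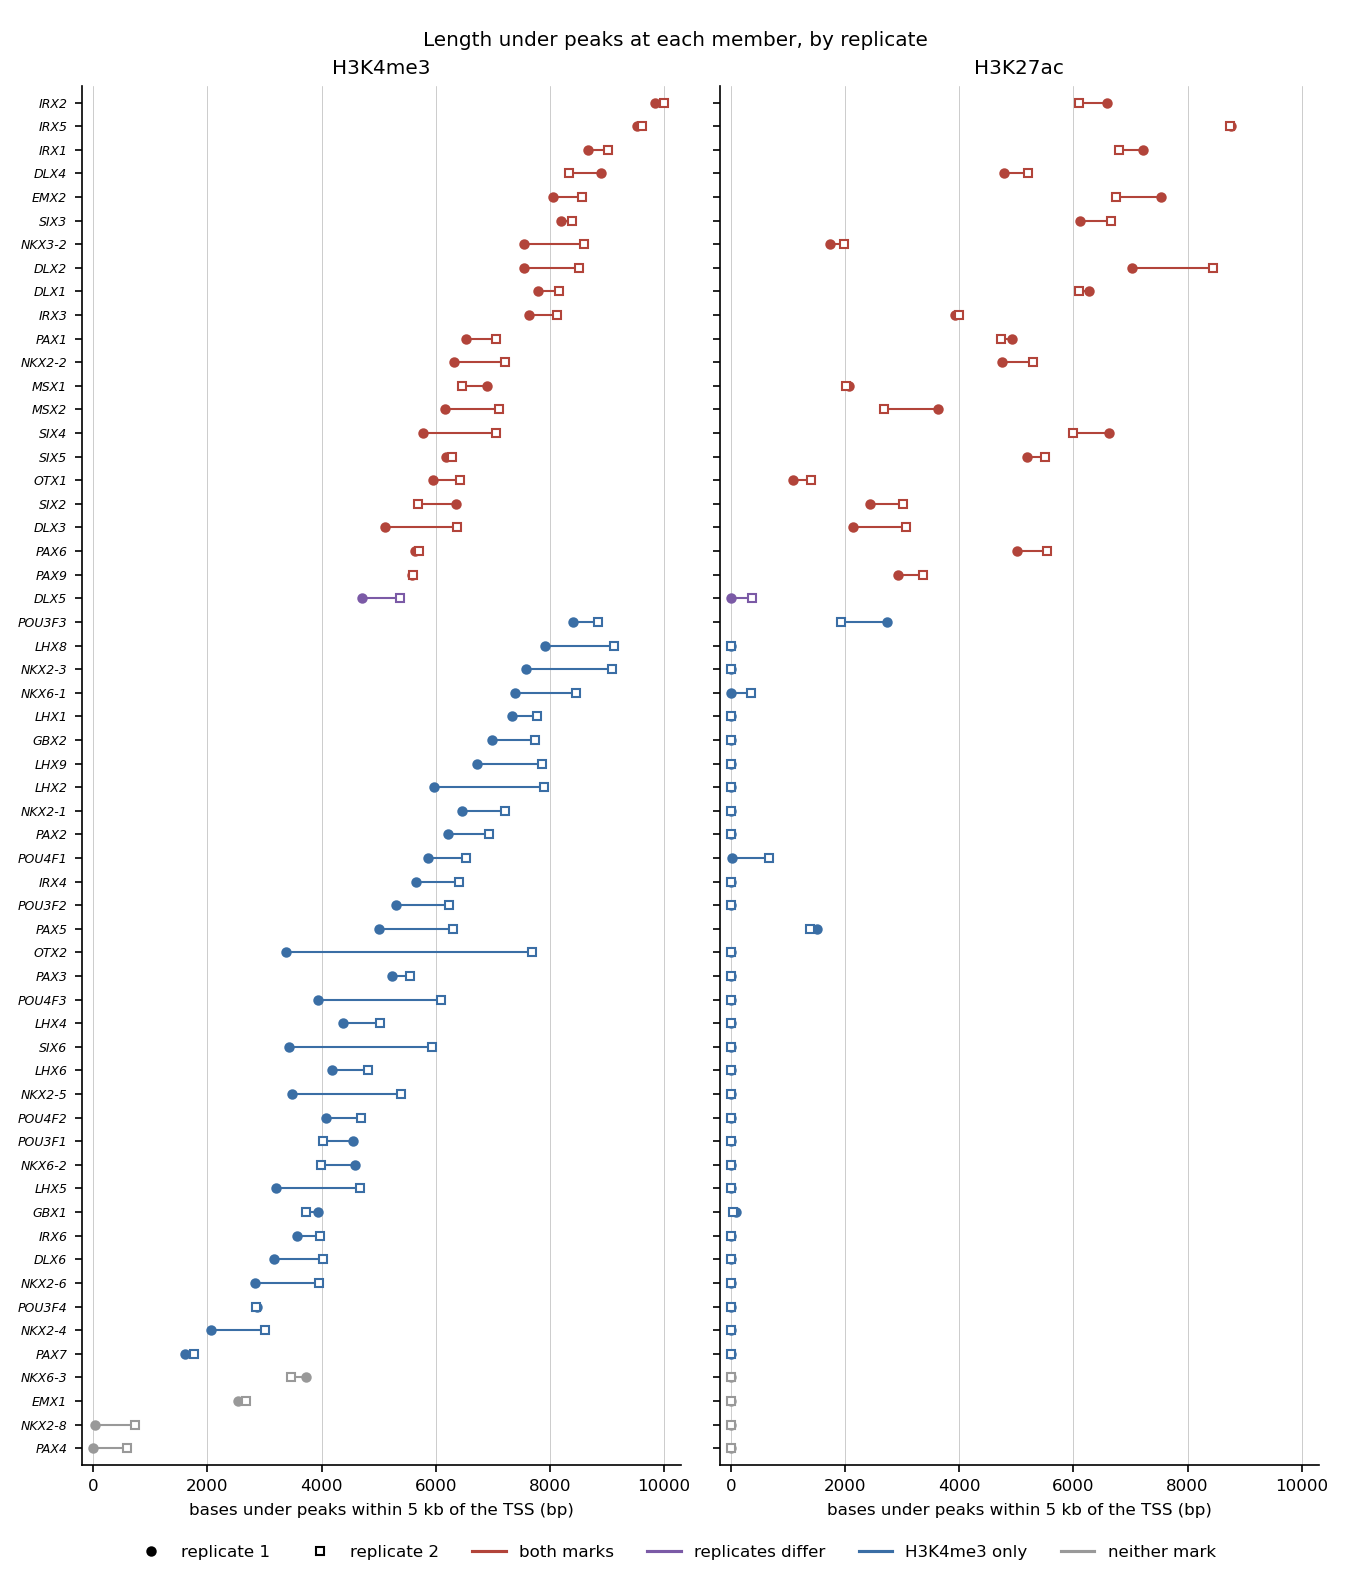
Bases under H3K4me3 peaks (left) and H3K27ac peaks (right) within 5 kb of the TSS (x axis, bp) for 58 of the 60 members (y axis), with replicate 1 as filled circles and replicate 2 as open squares joined by a line. The members are ordered by class and then by the mean H3K4me3 length. The H3K4me3-only members span from 1613 bp at PAX7 to 9129 bp at LHX8, while H3K27ac is at 0 in 27 of these 32 members in both replicates.

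The fold enrichment did not stand out in this way. At the members with both marks, the median H3K4me3 fold of the strongest peak at the TSS was 49.2 in replicate 1 and 24.0 in replicate 2, and 7 of 22 members lay above the median of the class in each replicate (55.5 in replicate 1). At the H3K4me3-only members it was 21.2 and 13.8, against 20.6 and 11.4, with 17 and 21 of 32 above. The H3K27ac fold at the members with both marks was 17.9 and 22.1, with 11 and 13 of 22 members above the class median. The members therefore differed from their class in the length of the marked stretch more than in peak height, and the H3K4me3-only members had lower H3K4me3 folds than those with both marks in both replicates, as did the H3K4me3-only class as a whole.

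Long H3K4me3 stretches without H3K27ac were uncommon among all genes. Where the covered H3K4me3 length was below 2000 bp, H3K27ac was lacking at 887 of 2380 protein-coding genes with H3K4me3 (37.3%). From 2000 to 4000 bp this was 555 of 7097 (7.82%), and 7 of 7 members in this range lacked it. From 4000 to 6000 bp it was 126 of 3010 (4.19%), against 12 of 16 members (75%). From 6000 bp on it was 40 of 936 (4.27%), and 12 of 31 members (38.7%). The members thus supplied 12 of those 40 genes: GBX2, IRX4, LHX1, LHX2, LHX8, LHX9, NKX2-1, NKX2-3, NKX6-1, PAX2, POU3F3 and POU4F1. The peak height moved with the class as well. In the 25% of genes with the lowest H3K4me3 fold in replicate 1, H3K27ac was lacking at 28 of 31 members (90.3%) and 41.2% of all genes, in the next 25% at 4 of 16 members (25%) and 5.55% of all genes, and above the median fold at 0 of 9 members and 0.611% of all genes. Replicate 2 gave 26 of 30 members (86.7%) against 40.6%, 6 of 17 (35.3%) against 5.64%, and 0 of 9 against 0.864%. With only 9 members above the median fold, these counts cannot show whether the members differed there from all genes.

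**Figure D3:**
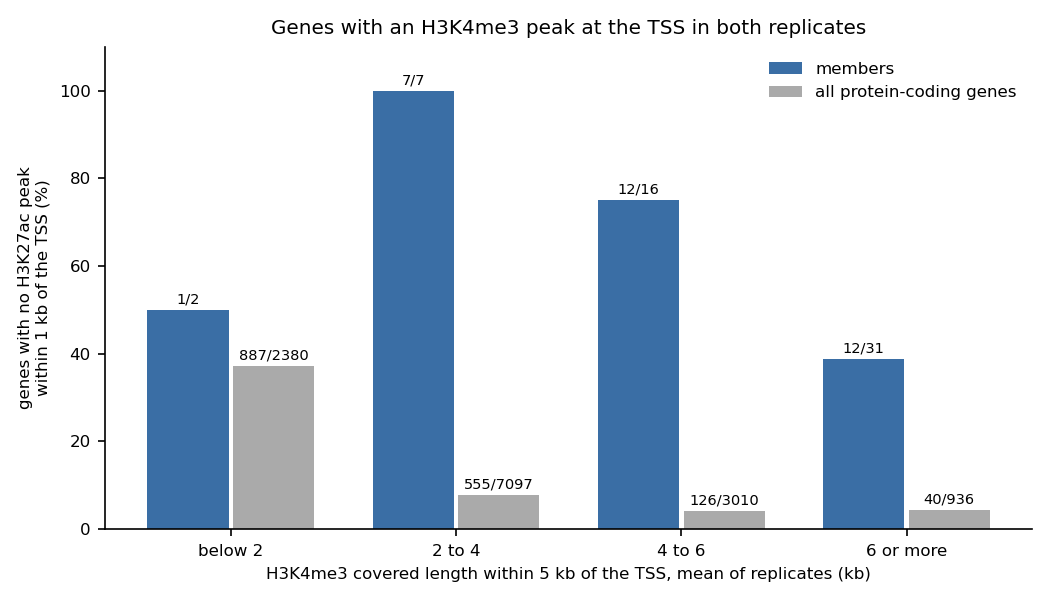
Share of genes with no H3K27ac peak within 1 kb of the TSS in either replicate (y axis, percent), among genes with H3K4me3 at the TSS in both replicates, by the H3K4me3 covered length within 5 kb (x axis, kb, mean of replicates). Bars are members (blue) and all protein-coding genes (grey), with the counts above them. From 4 kb on, 4.19% and 4.27% of all genes but 75% and 38.7% of the members lacked H3K27ac.

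Around the TSS, the H3K4me3 of the members reached far to either side. At the TSS itself, 95.5% of the members with both marks lay under an H3K4me3 peak in each replicate, and 95.1% of all genes of that class. At 5000 bp downstream this was 68.2% and 72.7% of the members (replicates 1 and 2) and 9.02% of the class in replicate 1, and at 5000 bp upstream 40.9% and 45.5% against 6.69% in replicate 1. H3K27ac extended mainly downstream, where it covered 50% and 54.5% of these members at 5000 bp, against 18.2% in each replicate at 5000 bp upstream. All genes of the class leaned downstream as well, with 16.3% downstream and 10.4% upstream in replicate 1 and 16.7% downstream in replicate 2, where the upstream share was again lower. At the H3K4me3-only members, H3K4me3 covered 25% and 34.4% at 5000 bp downstream and 25% and 31.2% at 5000 bp upstream, against 6.03% and 4.48% of the class in replicate 1.

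**Figure D4:**
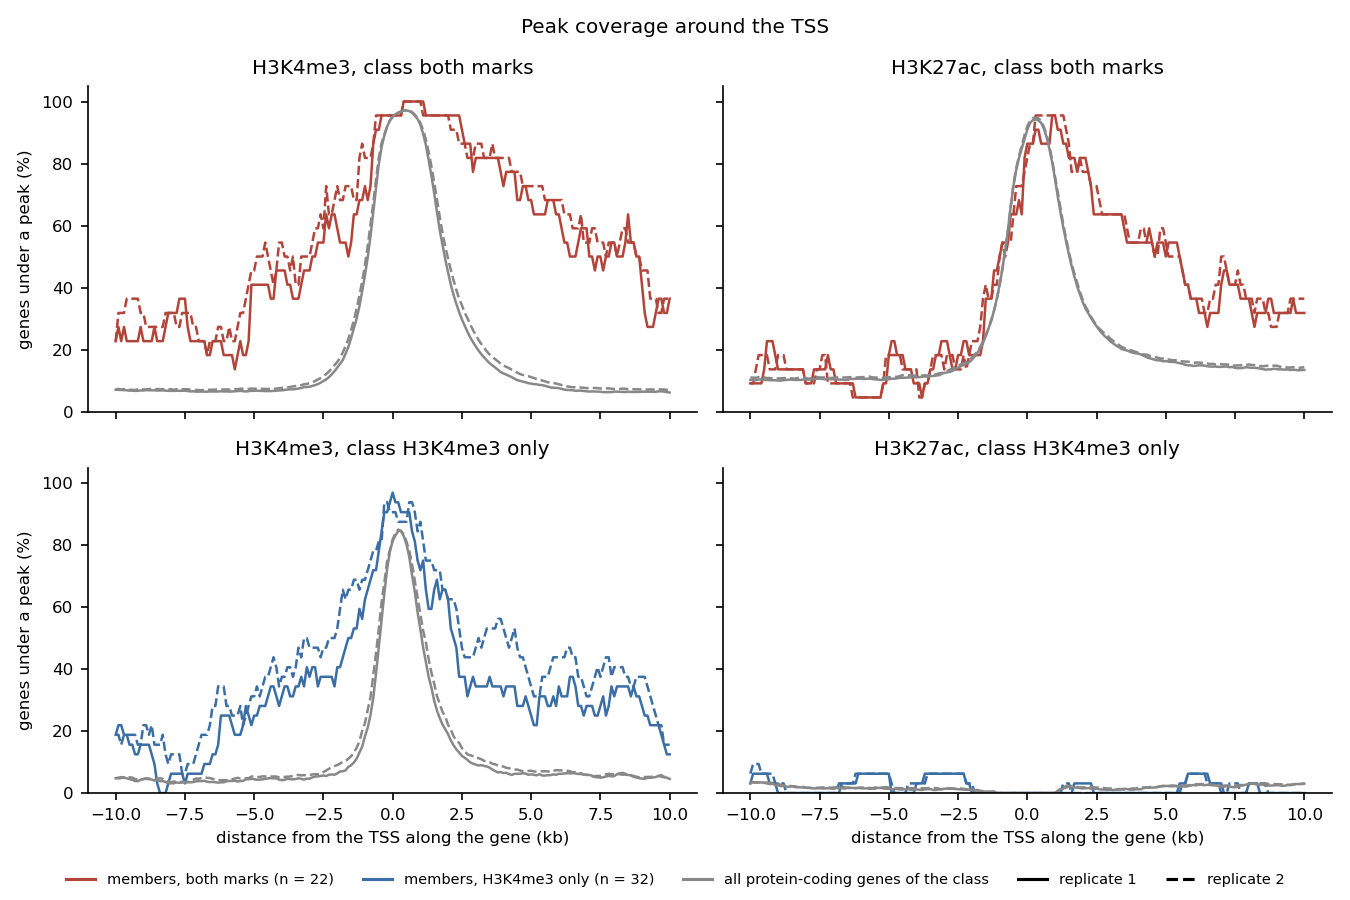
Share of genes whose position lies under a peak (y axis, percent) by distance from the TSS along the direction of the gene (x axis, kb), for H3K4me3 (left) and H3K27ac (right), at genes with both marks (top) and with H3K4me3 only (bottom). Colours are members, grey is all protein-coding genes of the class, with solid lines for replicate 1 and broken lines for replicate 2. H3K4me3 of the members stays above that of the class at 5000 bp to either side, and H3K27ac of the members with both marks extends mainly downstream, as that of the class does to a lesser degree.

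Much of the gene body was therefore under H3K4me3. In the members with both marks the median share of the gene under H3K4me3 peaks was 82.2% in replicate 1 and 98.5% in replicate 2, against 8.84% and 9.71% in the class. In the H3K4me3-only members it was 45.8% and 51.6%, against 4.19% and 4.59%. The members were also short genes, with a median length of 5332 bp (both marks) and 6050 bp (H3K4me3 only), against 26298 and 31948 bp in the classes, and a short gene is filled by a given stretch more readily. The part of gene length in the gene body share and in the covered length within 5 kb was not tested.

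The members with the widest domains included IRX2, IRX5 and IRX1. At IRX2 (chromosome 16, 78305869-78322776, plus strand), H3K4me3 covered 9839 and 10001 bp of the window at folds of 49.2 and 21.4 (replicates 1 and 2), and H3K27ac covered 6595 and 6100 bp at folds of 15.8 and 22.7. At IRX5 the H3K4me3 lengths were 9526 and 9621 bp with folds of 49.2 and 21.2, and the H3K27ac lengths were 8759 and 8737 bp with folds of 22.6 and 27.2. In these genes both marks filled most of the window.

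IRX1 had 8673 and 9020 bp of H3K4me3 (folds 47.4 and 26.4) and 7227 and 6806 bp of H3K27ac (folds 34.6 and 38.7). DLX4, of the branchial arch family, had 8896 and 8340 bp of H3K4me3 (folds 44.5 and 16.9) and 4775 and 5197 bp of H3K27ac (folds 12.9 and 12.4). EMX2, a factor of the cortex and urogenital tract, had 8048 and 8563 bp of H3K4me3, with folds of 77.0 and 34.8 that were the highest and second highest of the members in replicates 1 and 2, and 7534 and 6744 bp of H3K27ac (folds 39.5 and 44.5). In the next 2 the H3K27ac was low in fold (SIX3) or short (NKX3-2) beside wide H3K4me3. SIX3 had 8195 and 8393 bp of H3K4me3 (folds 40.4 and 20.5) and 6113 and 6655 bp of H3K27ac at folds of only 9.41 and 8.59. NKX3-2, a factor of the axial skeleton, had 7554 and 8593 bp of H3K4me3 (folds 36.8 and 14.4) but 1733 and 1980 bp of H3K27ac (folds 5.36 and 8.41).

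At members with both marks, H3K27ac lay almost wholly inside the H3K4me3 stretch. This overlap was not computed for all genes of the class, and the part of the H3K4me3 length in it was not tested. A median of 100% of the H3K27ac bases within 5 kb were also under H3K4me3 in each replicate, with a lowest value of 87.3% (SIX4, replicate 1). In the other direction, H3K27ac covered a median of 74.9% and 69.2% of the H3K4me3 bases. The share was lowest at OTX1, a factor of brain and sense organs, with 18.2% and 21.8%, followed by NKX3-2 with 22.9% and 23.0% and MSX1 with 30.1% and 31.1%. It was over 90% in both replicates at IRX5 (91.9% and 90.8%) and DLX2 (93.0% and 95.9%). OTX1 also had the weakest H3K27ac of the class, with folds of 4.47 and 3.11 over 1085 and 1400 bp, beside H3K4me3 folds of 60.9 and 31.6 over 5959 and 6430 bp.

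A further member showed how a domain can join genes. DLX1 and DLX2, which lie 17597 bp apart on chromosome 15 and are transcribed towards each other, lay under 2 H3K4me3 peaks in replicate 1, of 8349 and 12399 bp, and under a shared peak of 22163 bp in replicate 2. That peak counts for both genes, so their values in replicate 2 are not independent. The median width of the widest H3K4me3 peak at the TSS was 7130 and 8246 bp at the members with both marks, against 2942 and 3115 bp in the class, and 3446 and 4617 bp at the H3K4me3-only members, against 1577 and 1716 bp. In such wide peaks the summit is often far from the start. The summit of the strongest H3K4me3 peak at the TSS lay over 1 kb away at 9 and 11 of the 22 members with both marks and at 10 and 16 of the 32 with H3K4me3 only, against 11.8% and 22.8% and against 16.4% and 18.3% of all genes of the classes. When only peaks with a summit within 1 kb were counted, both marks remained at 4 members and H3K4me3 alone at 16 (6.67% and 26.7%, against 41.7% and 7.99% of all genes), 2 had H3K27ac alone, 13 had neither and 25 differed between replicates.

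Among the H3K4me3-only members, POU3F3 (chromosome 3, 49804112-49807730, minus strand), a factor of the nervous system and kidney, had the longest H3K4me3 stretch by the mean of replicates, though not in replicate 2 alone. It covered 8398 and 8849 bp at folds of 36.6 and 20.7. It was also a member of this class with H3K27ac near by, since peaks 1613 and 1963 bp from its TSS covered 2734 and 1930 bp of the window. The next 4 had wide H3K4me3 and little or no H3K27ac. LHX8, a factor of forebrain cholinergic neurons and oocytes, had 7913 and 9129 bp of H3K4me3 (folds 19.4 and 12.6) and no H3K27ac, and its nearest H3K27ac peaks were 46266 and 46546 bp away. NKX2-3, a factor of gut mesenchyme and spleen, had 7589 and 9094 bp of H3K4me3 (folds 14.4 and 14.5), with H3K27ac 17694 and 17609 bp away. NKX6-1 had 7387 and 8455 bp of H3K4me3 (folds 28.9 and 16.2), no H3K27ac in the window in replicate 1 and 355 bp in replicate 2. LHX1, a factor of head organizer and kidney, had 7341 and 7766 bp of H3K4me3 (folds 19.6 and 16.0), with the nearest H3K27ac at 11026 and 11011 bp.

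The shortest H3K4me3 stretch of the class was that of PAX7, a factor of muscle stem cells and neural crest, with 1613 and 1771 bp. Its folds, 15.6 and 13.8, were not the lowest. By length, PAX7 was the only member of the class below the median of all genes in it. The replicates differed most at OTX2, where H3K4me3 covered 3371 bp at a fold of 3.82 in replicate 1 and 7694 bp at a fold of 7.58 in replicate 2. At POU3F4 on chromosome X the lengths were 2869 and 2855 bp.

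In their wider surroundings the H3K4me3-only members had few H3K27ac peaks, at shares near those of all genes of the class. Within 5 kb of the TSS, 27 of the 32 had none in either replicate (84.4%, against 87.9% of the 1608 genes of the class), and the exceptions were PAX5, POU3F3, POU4F1, GBX1 and, in replicate 2 only, NKX6-1. Within 50 kb, counting summits, the median was 1 H3K27ac peak in each replicate, as in all genes of the class, against 4 in each replicate at the members with both marks and 6 in all genes of that class. No H3K27ac peak lay within 50 kb in either replicate at 11 of the 32 (34.4%, against 34.8% of the class): GBX2, IRX4, LHX4, NKX2-1, OTX2, PAX2, PAX3, PAX7, POU3F4, POU4F3 and SIX6. The distance to the nearest H3K27ac peak had a median of 43156 and 28293 bp, and the largest was 649026 and 649133 bp, at POU3F4. The members lay in gene-poor surroundings, with a median of 0 other protein-coding starts within 50 kb, against 1 for all protein-coding genes, and the part of this in the peak numbers was not tested.

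The replicates differed in class at DLX5 because of a weak H3K27ac peak in replicate 2. At DLX5, the partner of DLX6, H3K4me3 covered 4705 and 5366 bp at folds of 40.7 and 21.2, and H3K27ac had no peak in replicate 1 and 362 bp at a fold of 3.35 in replicate 2. This H3K27ac fold was below all those of the members with both marks in replicate 2 except OTX1 at 3.11.

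The 4 members without a histone mark at the annotated TSS were mostly not bare of H3K4me3. At EMX1, a cortical factor, an H3K4me3 peak with folds of 22.6 and 15.7 began 2470 and 2332 bp downstream of the annotated start, inside the gene. NKX6-3, a factor of the stomach, was flanked by H3K4me3 peaks on both sides, upstream with folds of 33.6 and 15.3 and downstream with folds of 21.6 and 14.3, and both flanks also had CTCF. At NKX2-8 an H3K4me3 peak of replicate 1, with a fold of 25.5, lay over the far end of the gene. In replicate 2 a peak of 734 bp with a fold of 3.46 was called within 5 kb. Over the whole gene, H3K4me3 had 1 peak in replicate 1 and 2 in replicate 2, covering 33.8% and 41.6% of it. PAX4, a factor of pancreatic endocrine cells, had no H3K4me3 within 5 kb in replicate 1, and 597 bp in replicate 2 from a peak upstream with a fold of 8.14. The CpG observed over expected ratio of the region from 250 bases before to 50 after the start had a median of 0.265 in these 4, against 0.266 in all genes with neither mark. With a distance of 5 kb in place of 1 kb, none of the 4 stayed without a mark, and EMX1, NKX2-8 and NKX6-3 were then H3K4me3 only.

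In number of H3K27ac peaks within 50 kb these 4 were not alike. PAX4, which has 4 other protein-coding starts within 50 kb, had 11 and 12, NKX6-3 had 6 and 4, and EMX1 and NKX2-8 had 1 in each replicate. The nearest H3K27ac peak was at 11109 and 11288 bp from PAX4 and between 29759 and 37872 bp from the other 3.

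The CpG ratio did not separate the members with H3K27ac from those without it. Its median was 0.760 in the members with both marks and 0.786 in those with H3K4me3 only, against 0.792 and 0.698 in all genes of these classes and 0.650 in all protein-coding genes. Low values occurred among marked members too: LHX8 had 0.260, LHX6 0.276 and PAX2 0.168 in the H3K4me3-only class, and PAX1 0.200 and SIX3 0.271 in the class with both marks. The letters TATAAA on either strand were found in that region in 0 of 22 members with both marks and 5 of 32 with H3K4me3 only (15.6%), and in 10.8% of all protein-coding genes. A match of these letters describes the sequence only. Another gene started within 1 kb of the TSS at 4 of the 22 members with both marks, IRX5, SIX5, EMX2 and IRX2 (18.2%, against 27.5% of all genes of the class), and at 0 of the 32 with H3K4me3 only (8.64% of the class). At these 4 the peak cannot be assigned to a single gene.

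CTCF was uncommon within 1 kb of the TSS of the members. It was present in both replicates at 5 of 60 members (8.33%), against 17.9% of all protein-coding genes, and in replicate 1 at 5 and in replicate 2 at 8 (6.50 ± 2.12, SD, n = 2). The 5 were DLX2, with folds of 49.3 and 55.3, SIX5 with 19.8 and 23.6, IRX6 with 12.2 and 11.2, IRX4 with 5.29 and 7.59, and MSX2 with 5.11 and 5.44. Peaks in replicate 2 only were found at GBX1 (8.24), IRX1 (5.54) and IRX5 (3.33). DLX2 thus stood well above the other members in both replicates. With a distance of 5 kb, 21 members had CTCF in both replicates (35%), the same share as of all genes (35.0%), and with 500 bp 1 member did (1.67%, against 14.0%). The lower share at the members was thus seen close to the TSS and not at 5 kb. Within 50 kb, the median number of CTCF peaks was 3 and 4 at members with both marks and 2 and 2.50 at those with H3K4me3 only, against 3 in each replicate for all protein-coding genes.

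The sequences under the CTCF peaks of 4 members with CTCF in both replicates are shown because they differ in whether they hold the core of the known CTCF motif. The letters AGGNGGC were searched on both strands, and each sequence covers 30 bases to either side of a summit on the plus strand of Sscrofa11.1, with matches in capitals (GCCNCCT is the same core on the other strand). The DLX2 stretch is chr15:78205404-78205464 (replicate 1), the SIX5 stretch chr6:52100829-52100889 (replicate 2), the MSX2 stretch chr16:49772191-49772251 (replicate 1) and the IRX6 stretch chr6:30205605-30205665 (replicate 2).
DLX2: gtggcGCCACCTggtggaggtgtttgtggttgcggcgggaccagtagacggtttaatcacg
SIX5: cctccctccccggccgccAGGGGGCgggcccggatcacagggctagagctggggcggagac
MSX2: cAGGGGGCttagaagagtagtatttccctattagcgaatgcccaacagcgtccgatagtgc
IRX6: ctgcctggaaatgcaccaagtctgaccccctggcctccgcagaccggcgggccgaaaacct
The core was present within 50 bases of the summit at DLX2, SIX5 and MSX2 in both replicates, at IRX4 and IRX6 in replicate 1 only, and at GBX1 in replicate 2. Over all CTCF peaks it was present in 33.6% and 33.8% (replicates 1 and 2), and in 6.11% and 6.14% of windows 1 kb away. Relative to the start, the summits lay at -1170 and -1135 bp at DLX2, -1356 and -1401 bp at SIX5 and -1027 and -1048 bp at IRX6. They lay at -476 and -477 bp at MSX2 and at -765 and -754 bp at IRX4. Presence was counted by overlap, so that at DLX2, SIX5 and IRX6 the peak reached within 1 kb of the TSS but its summit did not.

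Members that lie close together mostly shared their class, but not always. DLX4 and DLX3, 27652 bp apart on chromosome 12, had both marks, as did DLX1 and DLX2. DLX6 and DLX5, 20200 bp apart on chromosome 9, were the third DLX pair, and there H3K27ac was absent in both replicates at DLX6 and present in replicate 2 only at DLX5, at H3K4me3 folds of 39.7 and 23.2 for DLX6. NKX2-6, with H3K4me3 only, had 2840 and 3949 bp of H3K4me3 at folds of 15.3 and 9.37. Over a longer range, SIX2 and SIX3 (66958 bp apart) had both marks, whereas PAX9, with both marks, was 71823 bp from NKX2-8 with neither, and NKX2-2, with both marks, was 78274 bp from NKX2-4 with H3K4me3 only. Between PAX9 and NKX2-8 there were 3 CTCF peaks in each replicate, between NKX2-2 and NKX2-4 there was 1, and between SIX2 and SIX3, which shared their class, there were 5 and 4.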

How the data were processed

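ChIP-seq peak lists of H3K4me3, H3K27ac and CTCF in PEFs were used, with 2 replicates each. Per the methods, the authors aligned reads using bowtie2 and discarded fragments that were not unique and, using Picard, duplicates. They ran MACS2 (narrow peaks, control library as background) on every library by itself. The methods also state that the replicates' peaks were then merged at an irreproducible discovery rate of 0.01. The lists used here were those of single replicates and not that merged set. The deposited lists give for each peak a score, a fold enrichment (a ratio over control), and a p-value and q-value as −log10. The stated q-value limit is 0.01, while the highest deposited q-value was between 0.0432 and 0.0499. The lists were used as deposited. The input libraries, and peaks on unplaced scaffolds, were not analysed here.

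Genes and sequences came from RefSeq on Sscrofa11.1, the build named in the labels. The TSS was the 5′ end of the gene. Peaks overlapping the 1 kb to either side by at least 1 bp counted as present at the TSS, in both replicates. Peaks within 50 kb were counted by summit. Fold is that of the strongest peak at the TSS. Computations used Python 3.11.15 with pandas 2.3.3, numpy 2.4.6 and pysam 0.24.0. No test was made, since no conditions were compared. Both replicate values, or their mean ± SD, are shown. In 2000 simulated starts, 100% of the planted classes and lengths were recovered. The members and lists were chosen with earlier results of these data known. Every member was to be named with its class, and 2 members and some sequences are not reported here, though all 60 members enter the counts and medians. By the rule, values in each library were to be given for the 8 members with both marks and the 5 with H3K4me3 only that had the longest mean H3K4me3 length, those whose replicates differed, those without marks, those with CTCF at the TSS, and pairs within 50 kb. PAX7, OTX1, OTX2, POU3F4 and the pairs beyond 50 kb were added after their values were seen. Alternatives were other distances, q-values, transcript starts, summits, windows and leaving out each replicate.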

Additional observations from a re-analysis of the deposited data

How the results depend on the processing

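Of 126 values recomputed under an alternative, 96 were counted as close to the reported value. Close meant within 1.5 times for counts and within 1 SD between replicates for medians. For medians, leaving out a replicate could only give a close value, since the reported value is the mean of the 2 replicates. Those outcomes are among the 96 and tell nothing of stability. The CpG medians were counted as changed without this rule. No paired analysis was possible because no test between groups was made. Without each H3K4me3 or H3K27ac replicate in turn, both marks were found at 22 to 24 members and H3K4me3 alone at 32 to 34. Without CTCF replicate 1, 8 members had CTCF at the TSS, and without replicate 2, 5 (reported 5). With a distance of 5 kb, 0 members had neither mark and 21 had CTCF; with 500 bp, 1 had CTCF; with a peak in either replicate, 8 had CTCF. With the summit required within the distance, 4 members had both marks, 16 H3K4me3 only, 2 H3K27ac only, 13 neither and 2 CTCF, and 6 partner genes had both marks and 4 H3K4me3 only (the partner gene counts were added after seeing the data). These alternatives admit different peaks from the reported rule, and the reason for each change was not tested.

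For members with both marks, with H3K4me3 only and with neither, the reported median number of H3K27ac peaks within 50 kb (mean of replicates) was 4, 1 and 3. It was 3.50, 0.250 and 2.25 with −log10 q of at least 5, 3, 0 and 0 within 20 kb, and 6, 2.25 and 7 within 100 kb. For CTCF it was 3.50, 2.25 and 4, changing to 2, 1 and 1 within 20 kb and 5.50, 4 and 8.50 within 100 kb. The median CpG ratio over 500 bases to each side of the TSS was 0.773, 0.774 and 0.300, against 0.760, 0.786 and 0.265. With depth unknown, weak peaks near the calling limit cannot be told from none.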
